A study of Mus musculus with 6 samples.

Results

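The C/EBP family comprises basic leucine zipper transcription factors, proteins that pair through a coiled zipper and bind DNA with the adjoining basic region. The members were the 6 genes Cebpa, Cebpb, Cebpd, Cebpe, Cebpg and Ddit3, taken by gene symbol from the probe annotation supplied with the values. That annotation named 6 probes for 5 of them, out of 38467 probes in all, and the 5 genes were part of 27046 genes and unnamed probes tested. Cebpe, the member known from granulocyte maturation, had no probe under its symbol and was not analysed here. C3H10T1/2 is an established mouse mesenchymal line that can be directed to fat, bone, cartilage or muscle fates. The dexamethasone group was 3 cultures given 1 µM of this synthetic glucocorticoid for 90 minutes, and the vehicle group was 3 cultures given its solvent, DMSO. All were grown in the same serum-containing medium, and the series describes them as biological replicates. Each culture was set on its own two-colour array against RNA pooled from DMSO, dexamethasone and, by one label, myostatin cultures.

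In adipogenesis, Cebpb and Cebpd are the early members, and their proteins act upstream of Cebpa and the nuclear receptor Pparg. Dexamethasone is part of the standard mixture that starts fat cell differentiation in culture. Cebpg encodes a member without a classical activation domain that pairs with other leucine zipper proteins. Ddit3 encodes CHOP, a stress-induced member whose dimers with other C/EBPs do not bind the usual C/EBP sites.

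Promoter sequence is shown for the member with the largest difference between the groups, Cebpb, and for the one with the lowest, Ddit3, since these lie at opposite ends of the family. Both are the 250 bases before the annotated start, from RefSeq on GRCm38.p6, on the plus strand at chr2:167688665-167688914 for Cebpb and chr10:127290543-127290792 for Ddit3. Capitals mark TGACG, the core of a cyclic AMP response element, and CCAAT, each on either strand.
Cebpb: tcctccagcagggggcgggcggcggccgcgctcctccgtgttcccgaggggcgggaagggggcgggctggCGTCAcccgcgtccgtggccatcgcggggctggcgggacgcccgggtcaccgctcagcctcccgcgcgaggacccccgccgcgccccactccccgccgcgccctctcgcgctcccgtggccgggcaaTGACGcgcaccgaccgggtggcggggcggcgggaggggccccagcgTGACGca
Ddit3: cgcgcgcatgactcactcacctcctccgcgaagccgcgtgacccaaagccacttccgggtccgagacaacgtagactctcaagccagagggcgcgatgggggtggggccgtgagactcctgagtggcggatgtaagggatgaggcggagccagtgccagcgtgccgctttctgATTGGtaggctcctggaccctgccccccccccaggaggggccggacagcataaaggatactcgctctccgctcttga

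The Cebpb window held TGACG at 3 places, at positions -180 to -176, -53 to -49 and -7 to -3 from the start, and no CCAAT. The Ddit3 window held 1 CCAAT, at -77 to -73, and no TGACG. Of 4 members with a RefSeq window (Cebpa, Cebpb, Cebpg and Ddit3), only Cebpb had TGACG, which 17.77% of all 32851 windows hold. CCAAT stood at 2 places in the Cebpg window, at -89 to -85 and -28 to -24, and is found in 33.85% of all windows. The Cebpa window had the TATA sequence TATAAA at -30 to -25, which 12.37% hold. None of the 4 windows contained AGAACA or its reverse TGTTCT, the letters of a glucocorticoid receptor half-site, which 16.08% of windows hold. The full palindrome with any 3 bases in its middle occurred in 0.01%. The letters TTNCNNAA of a C/EBP site, found in 36.85% of windows, were also in none of the 4. These matches describe the letters of this window only. GC content was 81.6% in the Cebpb window and 64.8% in that of Ddit3, against a median of 52.4% over all windows.

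Values are log2 ratios of a culture's RNA to the pool, so that 0 is the level of the pool and a step of 1 is a 2-fold difference. They give no absolute level. The scale was inferred from the values, and the labels do not say which channel was the numerator. The culture over the pool is the likely reading, because 5 of 6 textbook glucocorticoid receptor targets (Fkbp5, Tsc22d3, Per1, Sgk1, Dusp1 and Zbtb16) had positive differences with all dexamethasone arrays above all vehicle arrays. It is not settled, and the lowest Spearman correlation between 2 arrays, dexamethasone 3 and vehicle 2, was -0.33 across all probes. If the ratio ran the other way, Cebpb and Cebpd would be lower and Ddit3 higher with dexamethasone, and every direction and fold given here would invert. The arrays also formed 2 sets. Dexamethasone 2, dexamethasone 3 and vehicle 3 had medians from 0.157 to 0.573, with 7.73% to 12.7% of values within 0.0005 of the log2 of a ratio of whole numbers up to 10. Spots of very few intensity units give such values, but intensities were not used here and the share that matches by coincidence was not computed. Dexamethasone 1, vehicle 1 and vehicle 2 had medians from -0.117 to -0.101 and 1.86% to 3.79% of such values, the highest share being that of dexamethasone 1. Missing values also differed by group. They numbered 1695, 2837 and 4290 on dexamethasone arrays 1, 2 and 3, against 552, 825 and 932 on vehicle arrays 1, 2 and 3. The median difference over all 27046 features was 0.32, so the members' differences are also given relative to it.

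Cebpb and Cebpd were the members with large differences between dexamethasone and vehicle cells, 9.09-fold and 4.45-fold higher with dexamethasone, while Ddit3 was slightly lower and Cebpa and Cebpg overlapped between the groups. limma called none of the 5 genes at a Benjamini-Hochberg adjusted p under 0.05, against a background of 0 of 27046 (0%). Tested probe by probe, limma again called none of the 6 probes and 0 of 36465 probes overall (0%). At an unadjusted p under 0.05, 2 of the 5 genes were higher (Cebpb and Cebpd), beside 4.43% of all features, and 0 were lower, beside 0.995%. In the same 2 genes all dexamethasone arrays lay above all vehicle arrays, which was so for 10.4% of all features. In 1 gene, Ddit3, all dexamethasone arrays lay below all vehicle arrays, which was so for 6.42%.

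**Figure D1:**
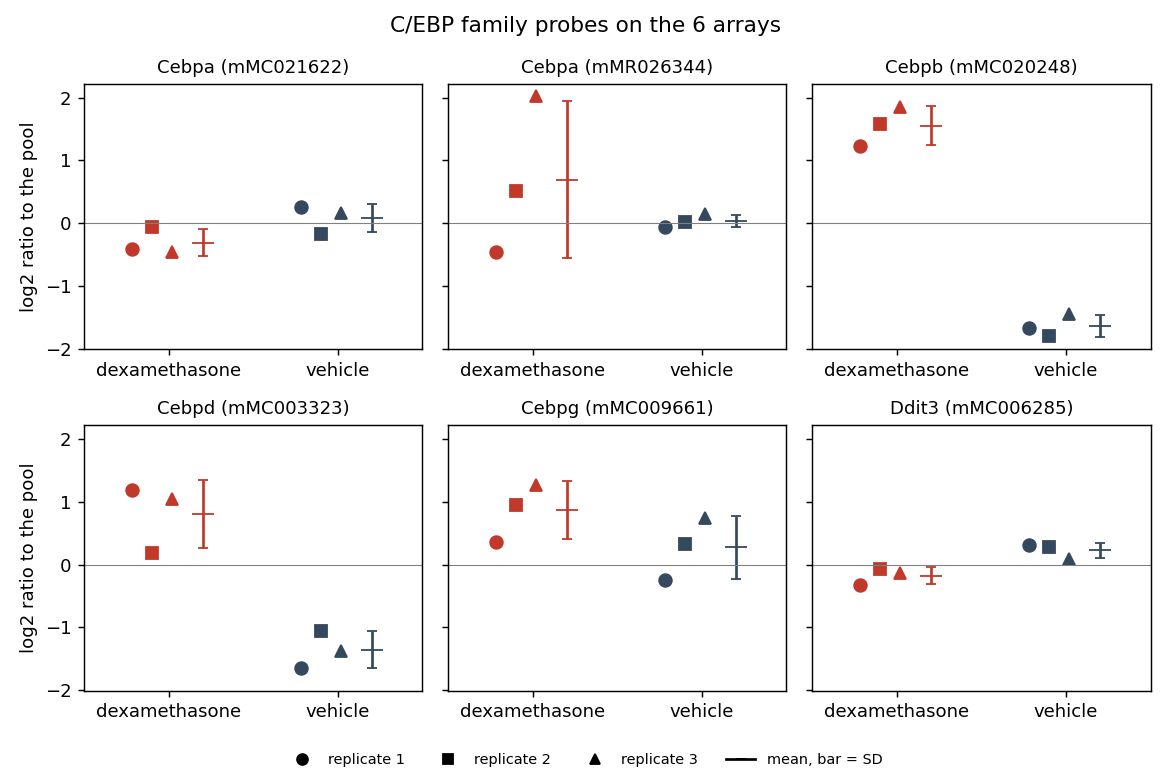
Log2 ratio to the pool (vertical axis) of each of the 6 C/EBP family probes on the dexamethasone and vehicle arrays, with the replicate shown by the symbol and the group mean ± SD beside the points (n = 3). Cebpb and Cebpd separate widely with dexamethasone above vehicle, Ddit3 narrowly with dexamethasone below, and the second Cebpa probe spreads over 3 dexamethasone arrays from -0.45 to 2.03.

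Cebpb encodes C/EBPβ, an early transcription factor of fat cell differentiation that also takes part in inflammatory and acute-phase gene expression. Its single probe, mMC020248, read 1.23, 1.57 and 1.85 on dexamethasone arrays 1, 2 and 3, against -1.67, -1.80 and -1.44 on vehicle arrays 1, 2 and 3. The annotation of this probe names no RefSeq transcript, unlike those of the other member probes. The groups were far apart, and the pool lay between them: every dexamethasone value was above it and every vehicle value below. The mean log2 ratio was 1.55 ± 0.31 with dexamethasone and -1.63 ± 0.18 with vehicle (SD, n = 3 each).

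The log2 difference for Cebpb was 3.18 ± 0.24 (SE, limma), with a 95% interval from 2.57 to 3.80, which is a 9.09-fold higher level with dexamethasone. Relative to the median of all features it was 2.87. The gap was many times the spread of either group, but its limma adjusted p over all features was 0.141. By p, Cebpb ranked 7 of 27046, and 98.01% of all features had a smaller difference (1.99% with the ratio turned). Within the array sets the log2 difference was 3.15 between dexamethasone 2 and 3 and vehicle 3, and 2.96 between dexamethasone 1 and vehicle 1 and 2.

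Cebpb was the only member that passed under any of the 28 other settings, in 3 of them. A low-signal filter dropped every probe with, on any array, no value, a ratio of whole numbers as above or a size over 10, which kept 17152 features, and there its limma adjusted p was 0.0358 while 29 features (0.169%) passed. With the same filter its limma adjusted p was 0.0283 without dexamethasone 1, where 934 of 17152 features passed. It was 0.142 and 0.0950 without dexamethasone 2 or 3, and 0.384, 0.463 and 0.295 without vehicle 1, 2 or 3. It was also above the threshold in that filtered table with the array sets as a block (0.0855) and with the replicate numbers as a block (0.536). The difference itself stayed between 2.80 and 3.34 in all 28, many of which cannot alter the estimate of a gene with 1 complete probe.

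Cebpd encodes C/EBPδ, the other early member and a known glucocorticoid-responsive gene. Its probe mMC003323 read 1.18, 0.18 and 1.03 on dexamethasone arrays 1, 2 and 3, against -1.65, -1.05 and -1.37 on vehicle arrays 1, 2 and 3. All dexamethasone values again lay above the pool and all vehicle values below it, with dexamethasone 2 the nearest to the pool. The mean was 0.80 ± 0.54 with dexamethasone and -1.36 ± 0.30 with vehicle (SD, n = 3 each).

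The log2 difference for Cebpd was 2.16 ± 0.35 (SE, limma; 95% interval 1.25 to 3.06), a 4.45-fold higher level with dexamethasone and 1.84 above the median of all features. The limma adjusted p was 0.330, and 93.61% of features had a smaller difference (6.38% with the ratio turned). Within the array sets the difference was 1.98 between dexamethasone 2 and 3 and vehicle 3, and 2.53 between dexamethasone 1 and vehicle 1 and 2. It ran from 1.85 to 2.46 over the 28 other settings, with adjusted p from 0.0562 to 0.990, so it passed in none.

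Ddit3, the gene of CHOP, differed little. Its probe mMC006285 read -0.33, -0.07 and -0.13 on dexamethasone arrays 1, 2 and 3, against 0.31, 0.28 and 0.09 on vehicle arrays 1, 2 and 3. The dexamethasone values were all below the pool and the vehicle values all above it, dexamethasone 2 and vehicle 3 being the nearest to each other. The log2 difference was -0.40 ± 0.18 (SE, limma; 95% interval -0.87 to 0.06), a 1.32-fold higher level in vehicle cells, and the limma adjusted p was 0.732.

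Relative to the median of all features the Ddit3 difference was -0.72, and 11.32% of features had a lower one (88.68% with the ratio turned). It was -0.71 after median centring of the arrays and -1.21 after quantile normalization, more than 1.5 times its size on the deposited values in both cases. It was below 0 in all 28 other settings, many of which leave the estimate unchanged, and passed in none. Within the array sets it was -0.19 between dexamethasone 2 and 3 and vehicle 3, and -0.62 between dexamethasone 1 and vehicle 1 and 2.

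Cebpa encodes C/EBPα, the member that maintains the differentiated fat cell, and was read by a pair of probes annotated with the same 3 transcript accessions. Probe mMC021622 read -0.41, -0.07 and -0.46 on dexamethasone arrays 1, 2 and 3, against 0.26, -0.17 and 0.17 on vehicle arrays 1, 2 and 3. Its groups overlapped, since vehicle 2 lay below dexamethasone 2. Its log2 difference was -0.40 ± 0.21 (SE, limma, adjusted p = 0.694).

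Probe mMR026344 read -0.45, 0.51 and 2.03 on dexamethasone arrays 1, 2 and 3, against -0.06, 0.02 and 0.15 on vehicle arrays 1, 2 and 3. The vehicle values stayed at the pool, while the dexamethasone values spread on both sides of it. The log2 difference was 0.66 ± 0.66 (SE, limma, adjusted p = 0.719), of opposite sign to that of the first probe. The probes gave like values between dexamethasone 1 and vehicle 1 and 2, -0.46 and -0.43 for mMC021622 and mMR026344. They parted between dexamethasone 2 and 3 and vehicle 3, at -0.43 and 1.12. That second set is the one with the larger share of whole-number ratios, but no value of either Cebpa probe was such a ratio. The source of the disagreement was not tested.

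Averaged over both probes, Cebpa had a mean log2 ratio of 0.19 ± 0.61 with dexamethasone and 0.06 ± 0.12 with vehicle (SD, n = 3 each). The difference was 0.13 ± 0.35 (SE, limma; 95% interval -0.78 to 1.04, adjusted p = 0.896). Its sign turned in 7 of the 28 other settings, among them median centring (-0.18) and quantile normalization (-0.44), so no direction can be given for Cebpa. Some of these 7 share an estimate, since the low-signal filter keeps both probes.

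Cebpg, whose product pairs with other zipper proteins, had the probe mMC009661. It read 0.36, 0.95 and 1.27 on dexamethasone arrays 1, 2 and 3, against -0.25, 0.33 and 0.74 on vehicle arrays 1, 2 and 3. The groups overlapped, and in both of them the array with the lowest value was the one numbered 1. The log2 difference was 0.59 ± 0.38 (SE, limma; 95% interval -0.39 to 1.56, adjusted p = 0.732), a 1.5-fold higher level with dexamethasone. It was 0.27 above the median of all features, 0.28 after median centring and 0.07 at its lowest, after quantile normalization. Cebpg was the only one of the 5 genes that the low-signal filter removed. The reason was 1 value, 0.36 on dexamethasone 1, which to 3 decimals matches a quotient of small integers and may do so by coincidence.

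**Figure D2:**
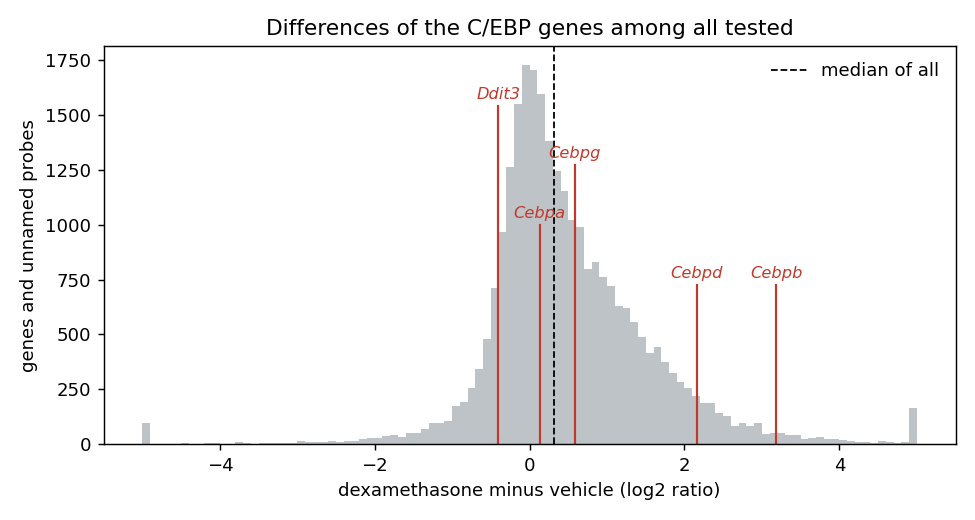
Histogram of the dexamethasone minus vehicle log2 difference over 27046 genes and unnamed probes (vertical axis, number per bin; 252 beyond 5 in size are placed in the outer bins), with red lines at the 5 C/EBP genes and a dashed line at the median of all. Cebpb (3.18) and Cebpd (2.16) lie in the upper tail, and Cebpa (0.13), Cebpg (0.59) and Ddit3 (-0.40) lie within the bulk.

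Cebpa and Cebpg are neighbours on mouse chromosome 7 in the RefSeq gene order, with 1 annotated gene between them, the non-coding Gm35611. Their log2 differences, 0.13 and 0.59, were both under those of Cebpb on chromosome 2 and Cebpd on chromosome 16.

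Subtracting one member's log2 ratio from another's on the same array removes any shift or centring common to that array. Cebpb minus Ddit3 was 1.56, 1.64 and 1.98 on dexamethasone arrays 1, 2 and 3, against -1.98, -2.08 and -1.53 on vehicle arrays 1, 2 and 3. The sign of this difference was opposite in the groups, and the step between the group means was 3.59. Against Cebpg, the step for Cebpb was 2.60, from values of 0.57 to 0.87 on the dexamethasone arrays and -2.18 to -1.42 on the vehicle arrays. Cebpd minus Ddit3 had a step of 2.56, with 0.25 to 1.51 on the dexamethasone arrays and -1.96 to -1.33 on the vehicle arrays.

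The step for Cebpb was smaller against Cebpd than against Ddit3 or Cebpg. Cebpb minus Cebpd was 0.05, 1.39 and 0.81 on dexamethasone arrays 1, 2 and 3, against -0.02, -0.75 and -0.07 on vehicle arrays 1, 2 and 3. The groups did not overlap, but dexamethasone 1 nearly met vehicle 1 and vehicle 3. The step between the group means was 1.03. Pairs without Cebpb or Cebpd had smaller steps: -0.45 for Cebpa minus Cebpg, 0.54 for Cebpa minus Ddit3 and 0.99 for Cebpg minus Ddit3. Of 10 pairs of members, 8 had groups that did not overlap, and 7 of these 8 contain Cebpb or Cebpd, whose own groups were already apart. The remaining one was Cebpg with Ddit3. How often pairs drawn from all features have groups apart was not computed, so these counts have no background. The exact two-sided permutation test over the 6 arrays gave p = 0.1 for these 8, the smallest that 3 against 3 arrays allow, and 0.125 after adjustment over the 10 pairs. The 2 pairs that overlapped were Cebpa with Cebpg and Cebpa with Ddit3.

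**Figure D3:**
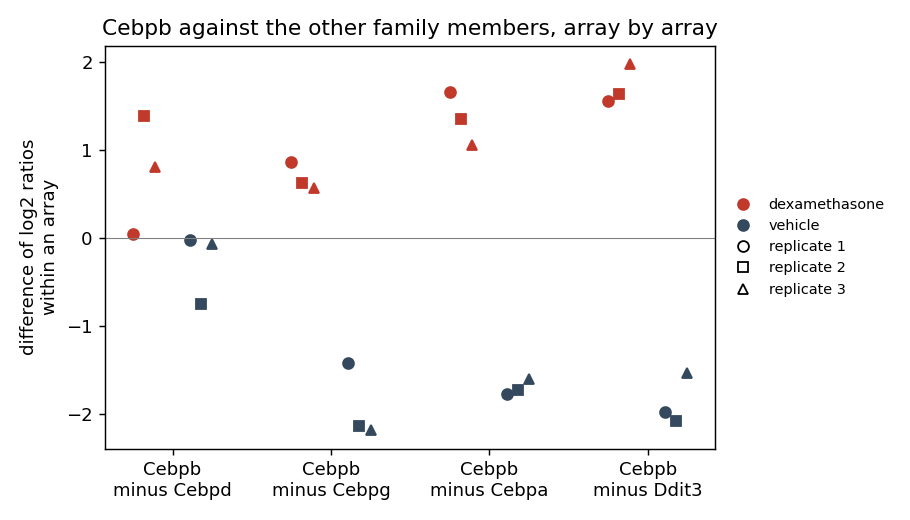
Cebpb log2 ratio minus that of Cebpd, Cebpg, Cebpa or Ddit3 on the same array (vertical axis), with the 3 dexamethasone arrays left of the 3 vehicle arrays in each comparison. Cebpb minus Ddit3 is 1.56 to 1.98 with dexamethasone and -2.08 to -1.53 with vehicle, whereas Cebpb minus Cebpd nearly meets at 0 for replicate 1.

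The 4 genes whose profile over the 6 arrays was most like that of Cebpb were Glul (glutamine synthetase), A230056P14Rik, Tcim and Rgs2 (a regulator of G protein signalling). Likeness was the root mean square distance after each gene's mean was removed, among 16509 named genes with values on all arrays. These distances were 0.250, 0.284, 0.298 and 0.324 on the log2 scale. Their log2 differences were 3.45 for Glul, 2.79 for A230056P14Rik, 2.83 for Tcim and 2.71 for Rgs2. In all 4 every dexamethasone array was above every vehicle array. Both traits follow from choosing genes by likeness to Cebpb, whose own groups were far apart. For Cebpd the 4 nearest were Prrt1 (0.194), Vwa3a (0.270), Tent5b (0.276) and Ctsr (0.297), with log2 differences of 2.22, 2.22, 1.78 and 2.41. Prrt1 and Tent5b shared with Cebpd a low reading on dexamethasone 2, at 0.50 and 0.03, which the choice by likeness favours. The distance between Cebpb and Cebpd was 0.686. The low-signal filter removed Prrt1, Vwa3a and Ctsr and kept all 4 genes nearest to Cebpb.

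Genes that act with or downstream of the C/EBPs in fat cell differentiation did not move as one. Of 20 tested from a list of 22, limma called 0 higher and 0 lower. Since 0 of all 27046 features passed, this holds for any list. All dexamethasone arrays were above all vehicle arrays in 5 and below in 4, beside 10.4% and 6.42% of all features. The median log2 difference was 0.35 beside 0.32 for all features. The transcription factor gene Klf9 read 0.51, 0.67 and 0.51 on the dexamethasone arrays, against -1.31, -1.29 and -1.50 on the vehicle arrays. Fabp4, the fatty acid binding protein gene with C/EBP sites in its promoter, differed by 1.91 ± 0.18 (SE). Egr2, which acts upstream of Cebpb in cultured preadipocytes, was at -1.10, -1.67 and -1.46 with dexamethasone, against -0.14, -0.41 and -0.29 with vehicle. The low-signal filter removed Klf9 and kept 15 genes of this list, of which Fabp4 passed in limma (adjusted p = 0.0401). Pparg, a main target of Cebpb and Cebpd, was named outside the rule for its role. It read -0.53, 0.23 and 0.18 with dexamethasone, against 0.37, 0.18 and 0.57 with vehicle, and its groups overlapped.

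Acute-phase and cytokine genes with known C/EBP binding went in both directions. Of 13 tested from 16, limma called 0, as it did of all features. Groups were apart upward in 2 and downward in 3, beside 10.4% and 6.42% of all features. The median log2 difference was -0.54, beside 0.32 for all features. Lcn2, which encodes the acute-phase protein lipocalin 2, read 0.51, 3.57 and 3.04 with dexamethasone, against -3.46, -2.37 and -2.03 with vehicle. The chemokine gene Ccl2 was at -1.71, -1.36 and -1.43 with dexamethasone, against 0.20, 0.24 and 0.47 with vehicle, and Ptgs2, the gene of cyclooxygenase-2, differed by -1.27 ± 0.18 (SE). Ccl2 was the one gene of the list that passed after the low-signal filter (limma adjusted p = 0.0487).

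Genes of the stress pathway in which Ddit3 lies had differences on both sides of 0, 12 above and 11 below. Of 23 genes tested from 24, limma called 0, as it did of all features. In 3 the groups were apart upward and in 3 downward, beside 10.4% and 6.42% of all features. The median log2 difference was 0.00, below the 0.32 of all features. Bcl2l11, the gene of the cell death protein BIM and a known CHOP target, differed by -0.65 ± 0.19 (SE), with -0.30, -0.62 and -0.54 on the dexamethasone arrays, against 0.28, 0.06 and 0.14 on the vehicle arrays. Herpud1, of endoplasmic reticulum protein disposal, differed by 0.51 ± 0.17 and the lipoprotein receptor gene Vldlr by 0.88 ± 0.33 (SE). Atf4, the activator of Ddit3 under stress and named for that role, differed by 0.40 ± 0.23 (SE) with overlapping groups. The lowest value of the list, Chac1, rested on a reading of -37.51 on dexamethasone 3, a size that intensities cannot give as a log2 ratio.

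Among zipper partners and other CCAAT-binding factors, 14 of 15 were tested and limma called 0. Groups were apart upward in 3 and downward in 5, beside 10.4% and 6.42% of all features. The median log2 difference was -0.18, beside 0.32 for all features. Nfil3, a zipper repressor, read 0.91, 1.21 and 1.11 with dexamethasone, against -1.26, -1.29 and -1.42 with vehicle, a difference of 2.39 ± 0.18 (SE) that lay between those of Cebpb and Cebpd. The clock output factor gene Dbp differed by -0.56 ± 0.23, and Nfya, a subunit of the CCAAT-binding factor NF-Y, by -0.37 ± 0.18 (SE). The only probe of Nfil3 was removed by the low-signal filter.

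Of regulators of C/EBP activity and translation, 22 of 28 were tested and limma called 0. The median log2 difference was 0.01, beside 0.32 for all features. Groups were apart upward in 2 and downward in 3, beside 10.4% and 6.42% of all features. The coactivator gene Ep300 read 0.39, 0.23 and 0.37 with dexamethasone, against -0.44, -0.46 and -0.49 with vehicle. Nr3c1, the glucocorticoid receptor gene, read -0.19, -1.24 and -0.51 with dexamethasone, against 0.32, 0.16 and 0.25 with vehicle. Trib1, whose product directs C/EBPα to degradation, differed by 1.26 ± 0.55 (SE) with overlapping groups.

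**Figure D4:**
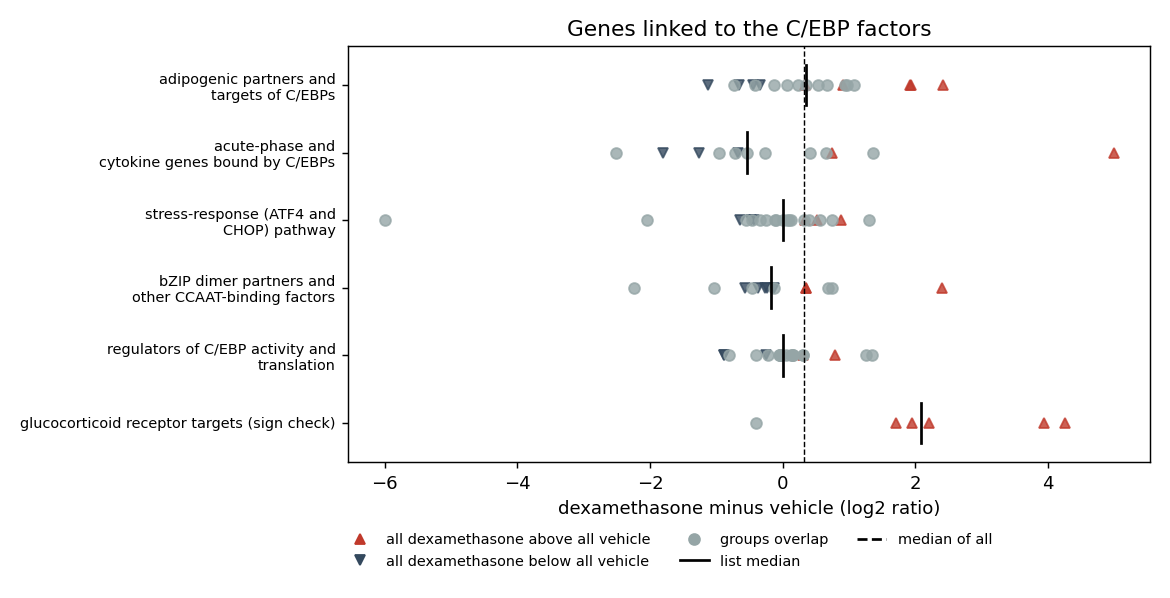
Dexamethasone minus vehicle log2 difference (horizontal axis) of each gene in 6 lists linked to the C/EBP factors, marked by whether the 3 dexamethasone and 3 vehicle arrays overlap, with list medians as bars and the median of all features dashed; 1 gene beyond 6 in size is placed at the limit. The glucocorticoid receptor targets have a median of 2.08, whereas the other 5 medians lie between -0.54 and 0.35.

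The cell type could not be checked from absolute levels, because ratios to a pool give none. Of the mesenchymal markers 7 were tested, with log2 differences from -0.67 to 1.28 and 6 of them below 0, and of blood, endothelial and epithelial markers 11, with differences from -0.32 to 2.83 and 10 of them above 0. The groups of these 11 overlapped in all but 1, Pecam1, and only 4 of them had a probe kept by the low-signal filter. All 5 muscle markers were above 0, from 0.05 to 1.67, and Myog (1.67) and Myod1 (0.88) had every dexamethasone array above every vehicle array. The 4 adipocyte markers tested ran from 0.28 to 0.93 with overlapping groups. These signs are against 0, whereas the median difference of all features was 0.32. Of all features, 10.4% had every dexamethasone array above every vehicle array. The part of the markers in the members' values was not tested.

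**Figure D5:**
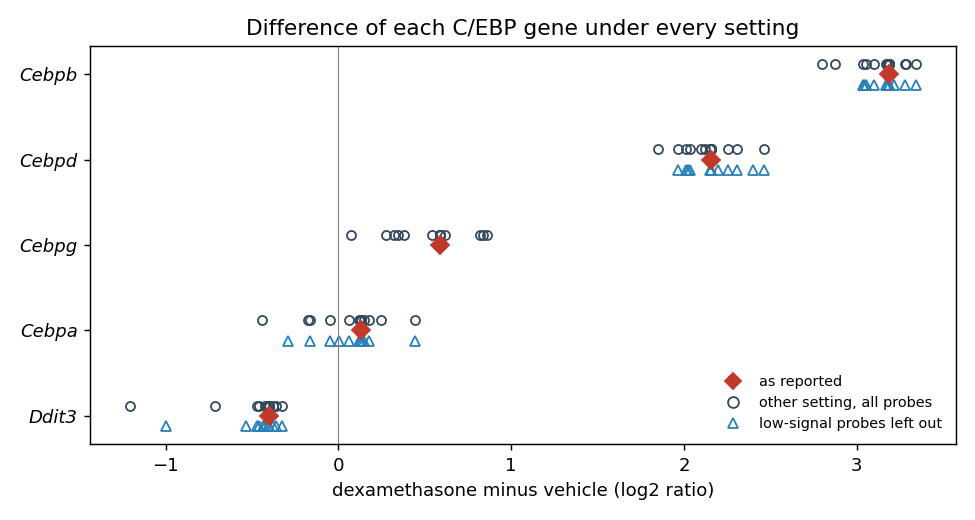
Dexamethasone minus vehicle log2 difference (horizontal axis) of each C/EBP gene as reported (red diamond), under other settings with all probes (open circles) and with low-signal probes left out (open triangles). Cebpb stays between 2.80 and 3.34 and Cebpd between 1.85 and 2.46, Ddit3 stays below 0, and Cebpa lies on both sides of 0.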

How the data were processed

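Transcripts were measured in 6 C3H10T1/2 cultures on two-colour arrays, the culture in Cy3 and the pool in Cy5, per the labels. The deposited values of dexamethasone and vehicle arrays were read as log2 ratios, inferred from the values. On 4 arrays some deposited values exceed 100 in size, although all 6 columns were recorded as log2 ratios on an inferred scale. They numbered 2, 27 and 9 on dexamethasone arrays 1, 2 and 3, against 0, 0 and 15 on vehicle arrays 1, 2 and 3. Values of that size may be a score rather than a ratio. These score values are as deposited, from the authors' own processing with limma before deposit, per their notes. All values were nevertheless analysed as log2 ratios, and those of the C/EBP probes lay between -1.80 and 2.03. The submitters' processing notes name limma. How background, normalization and spot quality were handled is not given in the sources used here. Groups and replicate numbers came from the titles.

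Of 38467 probes, 29456 had 1 gene symbol, 760 several and 8251 none. Probes with 1 symbol were averaged per gene, and values were needed on at least 2 arrays of each group. Differences are dexamethasone minus vehicle from limma 3.58.1 in R 4.3.3 (lmFit and eBayes, no block, two-sided), with Benjamini-Hochberg adjustment over all features at 0.05, and SE is moderated. The fit was tested on simulated data. The number of arrays limits the precision. The same pool on all arrays was assumed.

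Members and lists were chosen with earlier results of these data known. Named genes were all members, the 3 smallest p of each of 6 lists, and the 4 profiles nearest to Cebpb and Cebpd. Exceptions are stated. Deviations of same-numbered arrays from the group means correlated at 0.293, -0.164 and 0.364 (Spearman, replicates 1, 2 and 3). Other combinations ran from -0.47 (dexamethasone 1 with vehicle 3) to 0.331 (dexamethasone 1 with vehicle 2). Same-numbered arrays share an array set for replicates 1 and 3 but not for replicate 2. Combinations within a set were all positive (0.278 to 0.364) and those across sets all negative (-0.47 to -0.164). The sign thus followed the sets rather than the numbers, and no pairing was used. Promoter windows were searched with exact letters on both strands.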

Additional observations from a re-analysis of the deposited data

How the results depend on the processing

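Of 28 other settings, 17 were listed first. The other 11, which combine the low-signal filter with another choice, were added after seeing the data. The 17 were not blind to the data either, since the array sets and the low-signal filter rest on features of these values. Cebpb, Cebpd and Ddit3 kept their sign in all 28, and Cebpg in the 16 that hold its probe. Many settings, such as the filter, the replicate block and the changed priors, cannot alter the estimate of a gene with 1 complete probe. Under those the Cebpb difference stayed at 3.18. The 28 are therefore not separate checks of a sign or a range. Cebpa reversed with median centring (-0.18), quantile normalization (-0.44), an array-set block (-0.048) and without dexamethasone replicate 3 (-0.17). It also reversed with the low-signal filter combined with quantile normalization (-0.29), an array-set block (-0.048) or leaving out dexamethasone replicate 3 (-0.17). Leaving out single arrays moved it between -0.17 and 0.44. The cause was not tested. Cebpb passed in limma with the low-signal filter (3.18, adjusted p = 0.0358), with that filter and median centring (3.05, 0.0292), and with that filter without dexamethasone replicate 1 (3.34, 0.0283). The number of C/EBP genes passing was then 1 in each, and otherwise 0. The number of C/EBP probes passing was 1 in these same settings, where 44, 12 and 1297 of 23112 probes passed. It was also 1 without dexamethasone replicate 1 alone, where 140 of 32231 probes passed. As reported, 0 of 36465 probes passed and none of them was a C/EBP probe. Features passing overall were 0 as reported, 5 with values on all arrays, 2 with a trend in the prior and 29 with the filter. With the filter there were 10 after median centring, 1 with array weights, and 0 to 934 when 1 array was left out. The count of 934 came without dexamethasone replicate 1. With the replicate block the difference of Cebpb was 3.18 (adjusted p = 0.707), and no member passed with or without it. In the filtered table this block ended the call of Cebpb (adjusted p = 0.536). At an unadjusted p under 0.05 limma had 1199 features higher and 269 lower, against 681 and 424 after quantile normalization. No intensities were used here, so signal over background could not be assessed for any probe.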
